A study of Homo sapiens with 8 samples.

Results

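GDF15, FGF21 and ADM2 are hormone genes that liver cells switch on under stress, and they were examined together in human HepG2 cells exposed to plastic-related antioxidants. They were picked by name as secreted signals of the integrated stress response after earlier analyses of these samples had shown their values, so the levels and fold changes of the hormones themselves are a description without a test. They are 3 of the 60230 genes in the count table. GDF15 and ADM2 were among the 13404 genes with enough counts to be tested, and FGF21 was not. GDF15 and ADM2 mRNA stood higher in every treated sample than in either control sample, with the highest levels after compound 5, whereas FGF21 had at most 3 counts in any library.

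Cells under endoplasmic reticulum stress, amino acid shortage or mitochondrial damage phosphorylate the initiation factor eIF2α, which slows translation in general while the transcription factor ATF4 is made in greater amounts. ATF4 and its partner CHOP (DDIT3) then switch on genes of amino acid supply together with hormones that carry the stress message out of the cell. GDF15, a distant TGF-β relative, acts on the brainstem receptor GFRAL with its partner RET and lowers appetite. FGF21 is a liver hormone of fasting and metabolic stress that needs the co-receptor β-klotho (KLB). ADM2, also called intermedin, is a vasoactive peptide of the calcitonin family that signals through CALCRL paired with a RAMP protein.

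HepG2 is an established human hepatocellular carcinoma line, and all cells used here, controls included, overexpressed the drug-metabolizing enzyme CYP3A4 and were kept under blasticidin. Whether the line is 1 clone is not given in the sources used here. Cells were seeded 24 h ahead of treatment. There were 4 groups with 2 samples each, labelled day 1 and day 2 in every group. Control cells received 0.2% DMSO. Compound 4 (metylcresol in the labels) and compound 6 (cyclohexil) are methylene-bridged bisphenols that carry tert-butyl or cyclohexyl groups, respectively, and compound 5 (tetrabut) is an ethane-bridged bisphenol with tert-butyl groups. Each compound was used at its own IC50 concentration, so doses differed and values of different compounds are set side by side without a test between them. The libraries held between 9472261 and 13308975 counts. Levels are given as CPM, depth-scaled counts computed with TMM factors, and 3 counts, taken as the detection floor, equalled 0.234 to 0.313 CPM.

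GDF15 (ENSG00000130513) lies on the plus strand at chr19:18374731-18389176 in GRCh38, where GENCODE 29 lists 5 transcripts with 12 distinct exons. FGF21 (ENSG00000105550) lies on the same chromosome at chr19:48755559-48758333 with 2 transcripts and 6 distinct exons. ADM2 (ENSG00000128165) lies at chr22:50481556-50486440 with 2 transcripts and 5 distinct exons, and both of these genes are also on the plus strand. The microRNA gene MIR3189 sits within GDF15 on the same strand and overlaps no exon of it. All counts were made over whole genes.

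The 250 bases before each RefSeq start in GRCh38.p14 are given here because ATF4 and its partners act at promoter elements of this kind. Capitals mark a match to the C/EBP-ATF response element TGATGNAA, the composite site that ATF4 shares with C/EBP proteins, searched on both strands. The windows are chr19:18385908-18386157 for GDF15, chr19:48755274-48755523 for FGF21 and chr22:50481293-50481542 for ADM2. The RefSeq start of GDF15 lies inside the longer GENCODE gene.
GDF15: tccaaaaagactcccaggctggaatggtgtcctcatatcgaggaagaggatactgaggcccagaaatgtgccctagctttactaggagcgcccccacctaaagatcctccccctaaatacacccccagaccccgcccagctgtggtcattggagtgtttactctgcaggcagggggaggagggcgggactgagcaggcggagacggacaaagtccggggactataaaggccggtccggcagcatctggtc
FGF21: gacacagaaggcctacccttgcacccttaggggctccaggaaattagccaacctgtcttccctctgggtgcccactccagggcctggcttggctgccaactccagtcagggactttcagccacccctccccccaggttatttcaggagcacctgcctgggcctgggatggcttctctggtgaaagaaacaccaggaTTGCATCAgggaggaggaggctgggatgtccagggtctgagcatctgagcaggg
ADM2: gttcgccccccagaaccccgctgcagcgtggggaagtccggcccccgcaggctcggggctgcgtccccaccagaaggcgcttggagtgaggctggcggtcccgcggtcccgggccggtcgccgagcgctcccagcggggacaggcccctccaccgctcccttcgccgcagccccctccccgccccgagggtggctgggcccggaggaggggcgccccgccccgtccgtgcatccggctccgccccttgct
The FGF21 window held the element on the minus strand, at chr19:48755470-48755477, 54 to 47 bases before the start, written TTGCATCA on the strand shown. This element occurred in 3.15% of 34943 RefSeq promoter windows of the same length. The windows of GDF15 and ADM2 held no match to it, and none of the 3 windows held the AP-1 element TGANTCA, the cAMP response element TGACGTCA or the antioxidant response element TGACNNNGC. These occurred in 6.59%, 1.63% and 10.9% of all windows. The core TGANTCA and the antioxidant element can overlap where their letters coincide. GC content was 58.4% for GDF15, 60.0% for FGF21 and 78.8% for ADM2.

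GDF15 mRNA measured 393 and 294 CPM in the DMSO samples. It measured 1500 and 1780 CPM after compound 4. After compound 5 it reached 3370 and 3760 CPM. After compound 6 it was 841 CPM in replicate 1 and 1710 CPM in replicate 2. No treated sample overlapped the DMSO samples, and both compound 5 samples lay above all others. Replicate 2 of compound 6 fell between the samples of compound 4, so the levels with compounds 4 and 6 were not separated. With 2 samples per group, ADM after compound 4, described below, also lacked overlap with DMSO (edgeR adjusted p = 0.188). The share of all tested genes without overlap is not given here. Group means were 343 ± 69.9 CPM (SD, n = 2) with DMSO, 1640 ± 197 (SD, n = 2) after compound 4, 3570 ± 280 (SD, n = 2) after compound 5 and 1270 ± 611 (SD, n = 2) after compound 6. GDF15 took between 0.0305% and 0.04% of all counts with DMSO and up to 0.36% after compound 5.

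The fitted log2 fold change of GDF15 against DMSO was 2.26 (SE 0.27) after compound 4, 3.38 (SE 0.29) after compound 5 and 1.89 (SE 0.27) after compound 6, which equals 4.78-fold, 10.4-fold and 3.71-fold. Of the 13404 genes tested, 63, 37 and 83 had a larger log2 fold change, in the order of the compounds. The replicates of compound 6 differed 2.03-fold, and 2.76% of the tested genes had a gap as large between these samples. Without replicate 2 of compound 6 its log2 fold change was 1.30, and without replicate 1 it was 2.34.

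ADM2 mRNA measured 10.0 and 9.53 CPM with DMSO. It was 24.6 and 24.5 CPM after compound 4, 45.5 and 40 CPM after compound 5, and 21.0 and 31.4 CPM after compound 6. Again no treated sample overlapped the controls and compound 5 stood highest, while the samples of compound 4 lay within the range of compound 6. The log2 fold change of ADM2 was 1.33 after compound 4, 2.13 after compound 5 and 1.43 after compound 6, each with an SE of 0.19. This corresponds to 2.51-fold, 4.37-fold and 2.69-fold. Larger log2 fold changes were found for 233, 97 and 165 tested genes. Replicate 2 of compound 6 was again the higher, by 1.5-fold, a gap that 9.75% of the tested genes equalled or exceeded.

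Per kilobase of annotated exon, the mean GDF15 level was 164 CPM per kb with DMSO and 1710 after compound 5, against 2.29 and 10.0 for ADM2. The GDF15 level per kb was therefore 71.8 times that of ADM2 in controls, and 137, 171 and 99.7 times that of ADM2 with compounds 4, 5, and 6. Over the 8 samples the log2 CPM values of GDF15 and ADM2 had a Pearson r of 0.98 and a Spearman rho of 0.90, values that include the differences between groups and come from the same libraries.

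FGF21 was at the edge of detection in every library. The DMSO samples held 0 and 1 counts, those of compound 4 held 0 and 2, those of compound 5 held 2 and 3, and both samples of compound 6 held 2. All of these were at or under the floor of 3 counts, so no fold change was computed. Summed over replicates there was 1 count with DMSO (exact Poisson 95% interval 0.0253 to 5.57) and 5 counts after compound 5 (1.62 to 11.7), intervals that overlap and cover counting error only. A difference was not detectable at this depth.

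The genes around the hormones were taken from lists of receptors, relatives and pathway members. A gene was called when its p in the edgeR quasi-likelihood test, adjusted by Benjamini-Hochberg over all tested genes, was under 0.05. By this rule 6.5% of all tested genes were higher after compound 4, 13.9% after compound 5 and 2.8% after compound 6, and the shares of lower genes were 5.42%, 14.2% and 1.6%. The median log2 fold change of all tested genes was 0.00, -0.03 and 0.00, in the same order. These p-values measure the spread between the deposited samples, which may be technical. In these bulk samples, fewer cells of a kind and less RNA per cell cannot be told apart. All 3 comparisons use the same DMSO samples.

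KLB, the co-receptor that FGF21 requires, fell with every compound. Its level was 80.1 and 81.4 CPM with DMSO, 40.2 and 35.1 after compound 4, 29.8 and 28.3 after compound 5, and 53 and 37.2 after compound 6. The log2 fold change was -1.10 (SE 0.15, edgeR adjusted p = 0.00177), -1.47 (SE 0.16, adjusted p = 2.01e-04) and -0.85 (SE 0.15, adjusted p = 0.0154). KLB was the 1 gene called among the 4 tested of 11 receptor genes. The FGF receptors that pair with it differed in level. FGFR4, the main hepatocyte form, ranged from 282 to 401 CPM over all samples, and its log2 fold change after compound 5 was -0.31 (adjusted p = 0.0642). FGFR3 ranged from 123 to 152 CPM and FGFR1 from 63.9 to 92.9 CPM, with no call. FGFR2 had between 0.0855 and 0.788 CPM and was not tested.

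The receptors of the other hormones were scarcely detected. GFRAL and RET, the GDF15 receptor pair, had 0 counts in all 8 libraries, as did RAMP3. CALCRL, the core of the ADM2 receptor, had no more than 0.078 CPM, RAMP1 at most 0.458 CPM and RAMP2 at most 0.988 CPM. An absence of counts limits these genes to under the floor of each library and does not exclude a lower level.

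Among 23 relatives of the hormones, 10 were tested. Called higher were 3 (30%) after compound 4, 3 (30%) after compound 5 and 2 (20%) after compound 6, against 6.5%, 13.9% and 2.8% of all tested genes. Called lower were 1 (10%), 2 (20%) and 0 in the same order, against 5.42%, 14.2% and 1.6%. INHBE, which encodes the activin E subunit secreted by liver, was called with each compound. It measured 29.3 and 24.8 CPM with DMSO, 46.0 and 45.7 after compound 4, 105 and 98.4 after compound 5, and 36.6 and 59.2 after compound 6. Its log2 fold change was 0.76 (adjusted p = 0.0267), 1.91 (adjusted p = 1.49e-04) and 0.83 (adjusted p = 0.038, or 0.0568 with the replicate number as a block). As for GDF15 and ADM2, compound 5 stood highest and replicate 2 of compound 6 exceeded replicate 1. TGFB1, the prototype of the TGF-β family, rose by 0.81 (adjusted p = 0.00294), 0.83 (adjusted p = 0.00121) and 0.63 (adjusted p = 0.0236) on the log2 scale. INHBB, the activin B subunit, rose after compound 4 by 0.54 (adjusted p = 0.0242) and after compound 5 by 0.57 (adjusted p = 0.0106), and was 0.32 after compound 6 (adjusted p = 0.222).

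Not all relatives went the same way. ADM, the vasodilator adrenomedullin and closest relative of ADM2, measured 24.0 and 26.1 CPM with DMSO and 13.5 and 15.8 after compound 5. It fell by 0.77 on the log2 scale after compound 5 (adjusted p = 0.0111). Its log2 fold changes of -0.39 and -0.62 with compounds 4 and 6 were not called (adjusted p = 0.188 and 0.0809), although that with compound 6 passed with the replicate number as a block (0.0424). GDF7 fell by 0.61 after compound 4 (adjusted p = 0.00863) and by 0.80 after compound 5 (adjusted p = 0.0011), and its change of -0.40 after compound 6 did not pass (adjusted p = 0.0853). FGF19, the intestinal relative of FGF21 that also signals through KLB, lay between 0.197 and 2.36 CPM and was not called. GDF1, GDF11, INHBC and TGFB3 were tested without a call, at no more than 3.54 CPM. CALCB, GDF9 and TGFB2 had at most 0.295 CPM and were not tested.

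**Figure D1:**
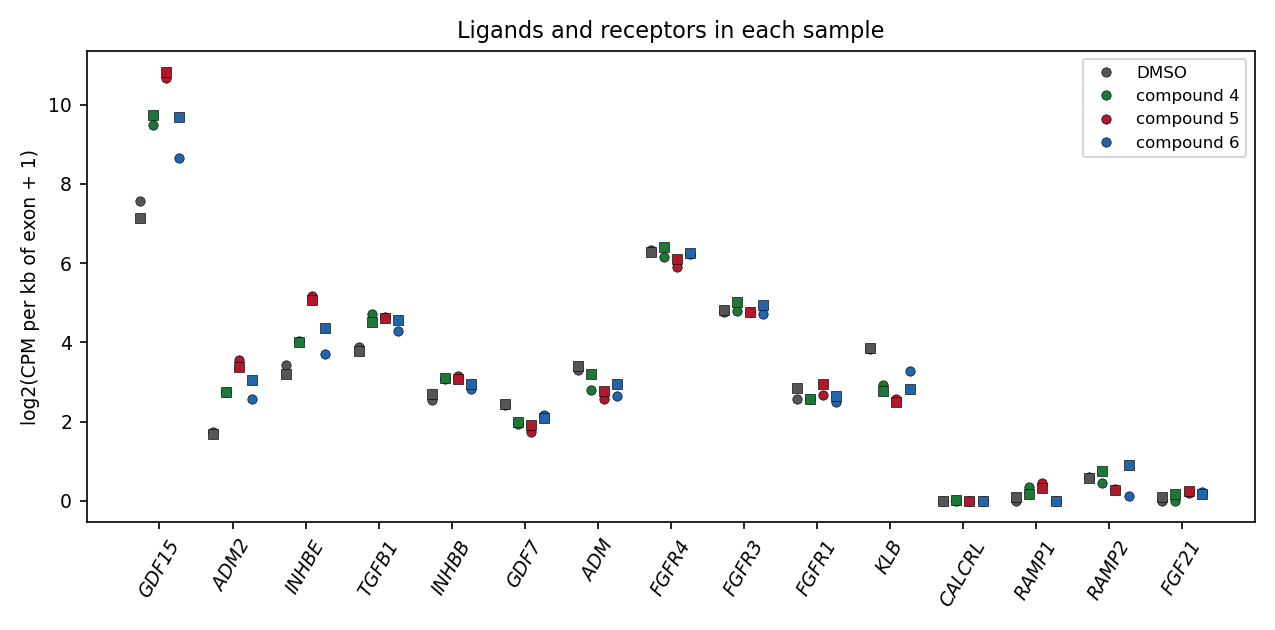
Log2 of CPM per kilobase of exon plus 1 (vertical axis) for the hormones, the relatives that were called with a compound and the receptors with counts other than FGFR2, in each sample (circles replicate 1, squares replicate 2). GDF15 is the highest of the ligands shown in every group, KLB is lower in all treated samples than with DMSO, and CALCRL, RAMP1, RAMP2 and FGF21 lie under 1.

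The hormones are made as longer precursors. FURIN, the protease that cuts many TGF-β family precursors, measured 56.3 and 57.5 CPM with DMSO and between 103 and 138 CPM in the treated samples. Its log2 fold change was 0.94 after compound 4 (adjusted p = 0.00217), 0.96 after compound 5 (adjusted p = 8.57e-04) and 1.10 after compound 6 (adjusted p = 0.00465). CPE, a carboxypeptidase that trims peptide hormones, fell by 0.53 after compound 5 (adjusted p = 0.00849). Of 8 processing enzymes tested, 2 (25%) were called higher and 2 (25%) lower after compound 5, against 13.9% and 14.2% of all tested genes. With each of compounds 4 and 6, 1 (12.5%) was called higher, against 6.5% and 2.8%. The 2 lower calls became 0 without DMSO replicate 1, DMSO replicate 2 or compound 5 replicate 1, where 2, 1 and 2 genes passed an unadjusted p under 0.05, and 1 without compound 5 replicate 2 or either replicate of compound 6. The 2 higher calls became 1 without any 1 replicate of DMSO or compound 5.

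Upstream of the hormones, 9 transcription factors and co-regulators of the integrated stress response were tested. Called higher were 3 (33.3%) after compound 4, 8 (88.9%) after compound 5 and 5 (55.6%) after compound 6, against 6.5%, 13.9% and 2.8% of all tested genes. The median log2 fold change of the 9 was 0.54, 1.45 and 0.84. DDIT3, encoding CHOP, measured 10.3 and 6.25 CPM with DMSO, 19.9 and 20.4 after compound 4, 56.7 and 56.9 after compound 5, and 13.9 and 24.6 after compound 6. Its log2 fold change was 1.30 (SE 0.27, adjusted p = 0.0118), 2.79 (SE 0.26, adjusted p = 1.09e-04) and 1.24 (SE 0.27, adjusted p = 0.0318, or 0.0507 with the replicate number as a block). ATF4 mRNA, whose protein is controlled mainly by translation, was abundant in controls at 407 CPM in both samples and lay between 505 and 762 CPM in treated samples. It rose by 0.84 after compound 5 (adjusted p = 8.91e-04) and 0.53 after compound 6 (adjusted p = 0.0381). The change of 0.41 after compound 4 was not called (adjusted p = 0.0538) but passed with the replicate number as a block (0.04).

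NUPR1, a stress-induced chromatin protein, differed from the hormones in that its highest levels were after compound 4. It measured 4.63 and 4.44 CPM with DMSO, 20.9 and 18.6 after compound 4, 12.3 and 12.6 after compound 5, and 10.3 and 13.8 after compound 6, and was called with each compound (log2 fold change 2.12, 1.45 and 1.42, adjusted p = 2.91e-04, 5.04e-04 and 0.00465). TRIB3, a pseudokinase that restrains ATF4, rose by 1.69 after compound 5 (adjusted p = 2.91e-04) and 0.86 after compound 6 (adjusted p = 0.0342). CEBPG, a dimer partner of ATF4, rose by 0.44, 0.89 and 0.50 (adjusted p = 0.0269, 4.07e-04 and 0.0321). Only the compound 5 changes passed the test for 3 further factors. ATF3 changed by 1.82 (adjusted p = 9.25e-04), CEBPB by 1.31 (adjusted p = 0.00702) and JDP2 by 2.03 (adjusted p = 0.00431). Whether these differed between compounds was not tested. ATF5 was not called, at 20.1 to 32.1 CPM.

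**Figure D2:**
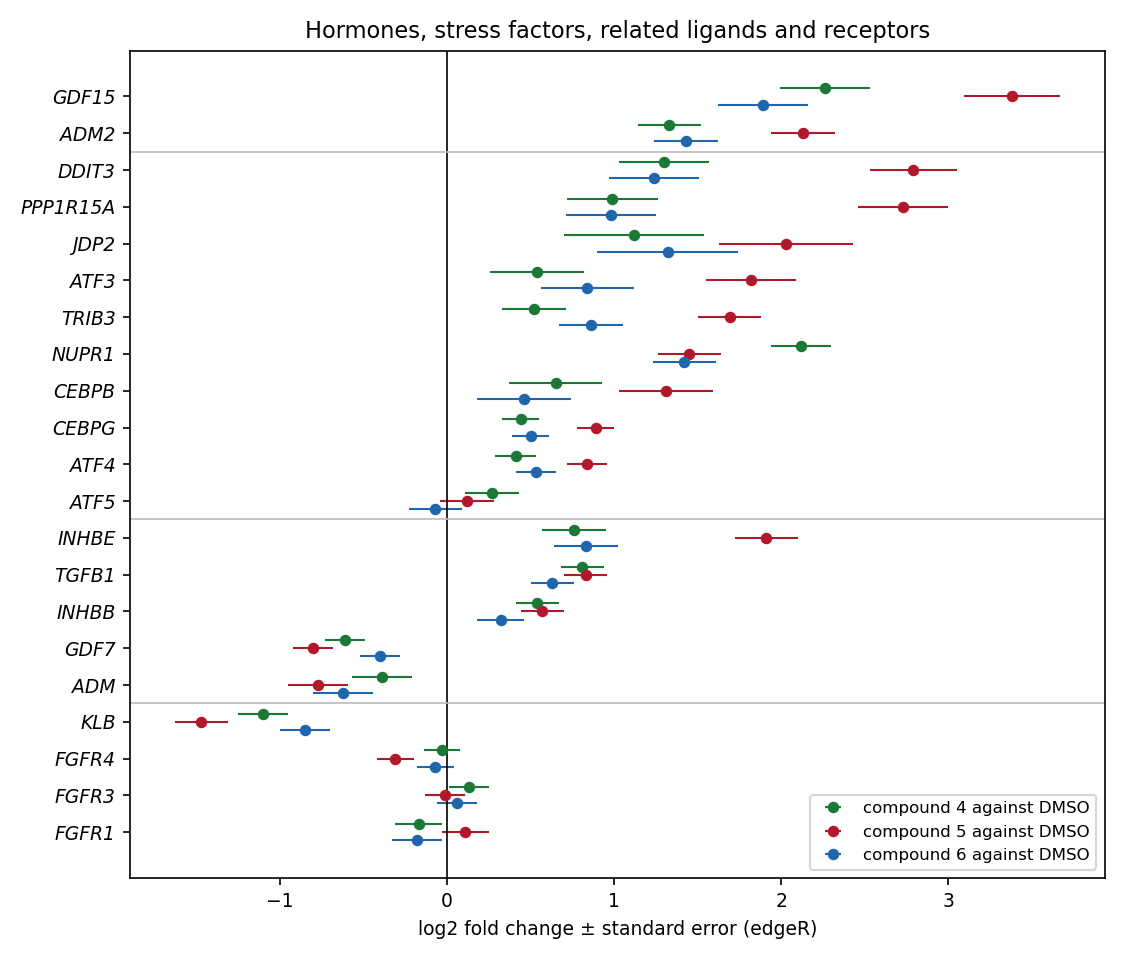
Log2 fold change against DMSO with its standard error (horizontal axis) for GDF15 and ADM2, stress factors and PPP1R15A, relatives and receptors (from top to bottom), with 1 point for each compound. Compound 5 gives the highest value for GDF15, ADM2, DDIT3 and INHBE, and KLB is below 0 with all compounds.

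Of 14 genes for the eIF2α kinases, their relay, eIF2B and the eIF2α phosphatase subunits, PPP1R15A had the largest change. It encodes GADD34, the inducible subunit that returns eIF2α to its active state. It measured 29.6 and 25.9 CPM with DMSO, 168 and 199 CPM after compound 5, and 34.7 and 74.3 CPM in the replicates of compound 6. It rose by 2.73 after compound 5 (adjusted p = 1.52e-04) and 0.99 after compound 4 (adjusted p = 0.0382). Its log2 fold change after compound 6 was 0.98 (adjusted p = 0.0672). After compound 6, 0 of these 14 genes were called higher by edgeR, 2 at an unadjusted p under 0.05, and 0 by DESeq2. After compound 5, 3 (21.4%) were called higher, against 13.9% of all tested genes. After compound 4 it was 1 (7.14%), against 6.5%.

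Many ATF4 target genes other than the hormones and the factors above rose in the same comparisons. Of 43 tested, 15 were called higher after compound 4, 33 after compound 5 and 22 after compound 6, against 6.5%, 13.9% and 2.8% of all tested genes. Their median log2 fold change was 0.33, 0.77 and 0.56. SLC3A2, a subunit of amino acid exchangers, went from 237 and 201 CPM with DMSO to 1150 and 1260 CPM after compound 5, a log2 fold change of 2.46 (adjusted p = 3.71e-05). SLC7A11, the cystine importer that pairs with SLC3A2, rose by 1.66 after compound 6 (adjusted p = 0.00642), where it measured 141 and 200 CPM against 55 and 53.3 CPM in controls. CHAC1, singled out after its values were seen, is a common ATF4 target that had 0 counts in all libraries but 1, where it was at 0.165 CPM.

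The ATF6 and XBP1 arm of the unfolded protein response, which enlarges the folding capacity of the endoplasmic reticulum, was taken as a further list. Of 25 genes tested, 11 were called higher after compound 5, against 13.9% of all tested genes, and the median log2 fold change was 0.24. After compound 4, 1 was called higher and 1 lower, with a median of 0.01. The higher call became 3 without compound 4 replicate 1 and 2 without compound 4 replicate 2 or either replicate of compound 6, and the lower call was lost without either replicate of DMSO or compound 5 and became 2 without compound 4 replicate 2. After compound 6, 0 were called higher and 0 lower by edgeR, 3 and 7 at an unadjusted p under 0.05, and 1 and 1 by DESeq2, with a median of -0.13. Without either replicate of compound 4, 2 were called lower after compound 6, and without compound 6 replicate 1, 2 were called higher. DNAJB9, an XBP1-dependent co-chaperone, rose by 0.86 after compound 4 (adjusted p = 0.00414) and 1.84 after compound 5 (adjusted p = 5.75e-05). DNAJB11 fell by 0.47 after compound 4 (adjusted p = 0.0316).

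GDF15 is also a known p53 target. Of 22 genes for p53 and its targets, 2 were called higher and 2 lower after compound 4, 3 higher and 9 lower after compound 5, and 1 higher after compound 6, and the median log2 fold change was -0.12, -0.29 and -0.15. In percent of the list, 9.09%, 13.6% and 4.55% were higher against 6.5%, 13.9% and 2.8% of all tested genes, and 9.09% and 40.9% were lower after compounds 4 and 5 against 5.42% and 14.2%. After compound 4, 0 were called higher and 1 lower without DMSO replicate 1 (3 and 3 at an unadjusted p under 0.05), 0 and 0 without DMSO replicate 2 (2 and 3), and 1 and 1 without compound 4 replicate 2. After compound 6, the higher call was lost without either DMSO replicate, either compound 5 replicate or compound 6 replicate 2, and 4 genes were called lower without either replicate of compound 4. PLK3, a stress-responsive kinase, rose on the log2 scale by 1.39 (adjusted p = 0.0122), 2.10 (adjusted p = 6.92e-04) and 1.19 (adjusted p = 0.0496). SESN1, a sestrin that restrains mTORC1, fell by 0.99 after compound 4 (adjusted p = 0.00919) and 1.25 after compound 5 (adjusted p = 0.00142).

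FGF21 is a known target of the fatty acid receptor PPARα. Of 16 genes for PPARα and its targets, 2 were called lower after compound 4, 6 after compound 5 and 1 after compound 6, and 1 was called higher after compound 5. Of all tested genes, 5.42%, 14.2% and 1.6% were called lower and, after compound 5, 13.9% higher. The 2 lower calls after compound 4 became 1 without DMSO replicate 2, and the lower call after compound 6 was lost without either DMSO replicate, either compound 5 replicate or compound 6 replicate 2 and became 2 without either compound 4 replicate or compound 6 replicate 1. The higher call after compound 5 became 2 and 3 without compound 4 replicates 1 and 2. FABP1, the liver fatty acid binding protein, measured 421 and 323 CPM with DMSO, 148 and 170 after compound 4 and 259 and 163 after compound 6. It fell by 1.22 after compound 4 (adjusted p = 0.00366) and 0.82 after compound 6 (adjusted p = 0.0448). EHHADH, a peroxisomal β-oxidation enzyme, fell by 1.59 after compound 5 (adjusted p = 2.34e-04). PLIN2, the lipid droplet coat protein, rose by 0.67 after compound 5 (adjusted p = 8.91e-04).

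Genes of NRF2, the oxidant-responsive factor, and its targets were called higher for 7, 10 and 6 of 15 tested genes with compounds 4, 5, and 6, with medians of 0.32, 0.57 and 0.28. The count for compound 4 was 4 without DMSO replicate 1 and 3 without DMSO replicate 2. The count for compound 6 was 0 by edgeR without DMSO replicate 1, DMSO replicate 2 or compound 6 replicate 2, where 7, 6 and 7 genes passed an unadjusted p under 0.05. OSGIN1, an oxidative stress-induced growth inhibitor, rose by 1.17 after compound 4 (adjusted p = 3.38e-04) and 2.03 after compound 5 (adjusted p = 1.98e-05). ABCC2, a bile canalicular export pump, rose by 0.81 after compound 6 (adjusted p = 0.00879). HMOX1, heme oxygenase, fell by 0.36 after compound 5 (adjusted p = 0.0256).

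Several counts and calls depended on single libraries. The 22 ATF4 targets called after compound 6 became 4 without DMSO replicate 1, 2 without compound 6 replicate 2, and 0 without DMSO replicate 2, where 28 passed an unadjusted p under 0.05 and the median log2 fold change was 0.55. The 15 called after compound 4 became 6 without DMSO replicate 1 and 4 without DMSO replicate 2. After compound 5 the count stayed between 27 and 38. The 5 stress factors called higher after compound 6 became 1 without DMSO replicate 1 or compound 5 replicate 1, 2 without compound 5 replicate 2, and 0 without DMSO replicate 2 or compound 6 replicate 2, where 5 passed an unadjusted p under 0.05 in each fit. The 3 called after compound 4 became 1 without DMSO replicate 2 and 5 without either replicate of compound 6. The 3 relatives called higher after compound 4 became 1 without DMSO replicate 1 and 0 without DMSO replicate 2, where 3 passed an unadjusted p under 0.05. After compound 5, the 9 p53 targets called lower became 5 without DMSO replicate 1 or compound 5 replicate 1, and the 6 PPARα targets called lower became 2 without DMSO replicate 1 and 3 without compound 5 replicate 2. Among the genes named above, every compound 6 call was lost without DMSO replicate 2. All of these but FURIN and NUPR1 were also lost without DMSO replicate 1, and all but FURIN without compound 6 replicate 2. The compound 6 calls of INHBE, ATF4, DDIT3, CEBPG, PLK3 and FABP1 were further lost without either compound 5 replicate, and that of TRIB3 without compound 5 replicate 1. PLK3 also lost its compound 6 call when libraries were scaled by size alone. The compound 4 calls of INHBE, INHBB, GDF7, PPP1R15A, CEBPG, DNAJB11 and PLK3 were lost without either DMSO replicate, and those of TGFB1, DDIT3 and SESN1 without DMSO replicate 2. PPP1R15A, CEBPG and DNAJB11 lost their compound 4 call also without compound 4 replicate 1 or either compound 5 replicate, and PPP1R15A and INHBB without compound 4 replicate 2 and by DESeq2. INHBB and DNAJB11 lost theirs in the fit of only the groups compared. After compound 5, the call of ADM was lost without DMSO replicate 2 or compound 5 replicate 1, that of INHBB without DMSO replicate 1 or compound 5 replicate 1, that of CEBPB without DMSO replicate 2 or compound 5 replicate 2, that of CPE without either DMSO replicate or compound 5 replicate 1, and that of HMOX1 without any 1 of these libraries and without the filter on low counts. DDIT3, NUPR1, TRIB3, INHBE, KLB, FURIN, SLC3A2 and PPP1R15A kept their compound 5 call when any 1 library was left out.

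The genes whose log2 CPM followed GDF15 most closely over the 8 samples, out of 12679 tested genes averaging 1 CPM or more, were SLC7A5, the leucine transporter (r = 0.9929), VASP, an actin regulator (0.9925), RASD1, a Ras-like GTPase (0.9922), SRXN1, sulfiredoxin (0.9921) and PIM1, a kinase (0.9912). RASD1 had log2 fold changes of 2.37, 3.76 and 2.28, larger than those of GDF15 with each compound. For ADM2 they were MARK4, a microtubule affinity kinase (0.9943), SLC7A5 (0.993), CD55, a complement inhibitor (0.9922), PRDM11 (0.9918) and LMO4, a LIM-only protein (0.9911). SLC7A5 was on both short lists, with 418 CPM in controls and 821 CPM after compound 5 on average. These correlations include the differences between groups and are descriptions.

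All 10 hepatocyte marker genes had counts, and their summed level was 39600 to 41400 CPM with DMSO, 31000 to 31100 after compound 4, 32900 to 33100 after compound 5 and 31500 to 37900 after compound 6. APOA1, AFP and TF, secreted liver proteins, were called lower by edgeR after compounds 4 and 5, and APOA1 and TF also after compound 6, while TTR was called higher after compound 4. Without DMSO replicate 1 these lower calls were lost except that of AFP after compound 5, and without DMSO replicate 2 those of APOA1 and AFP after compound 5 held. The APOA1 and TF calls were also lost without replicate 1 of the compound itself after compounds 4 and 5. That of TF after compound 5 was lost without compound 5 replicate 2. After compound 6, both were lost without either compound 5 replicate or compound 6 replicate 2. Both compound 6 calls also failed once replicate number entered as a block (edgeR adjusted p = 0.0576 for APOA1 and 0.0547 for TF). The TTR call was lost without DMSO replicate 2, compound 4 replicate 2 or either compound 5 replicate. Of 10 markers of other cell types, CD3E, COL1A2, DCN and PTPRC were at 0 in every library. The other 6 summed to 2.71 to 4.04 CPM with DMSO, 9.13 to 11.2 after compound 4, 4.16 to 6.32 after compound 5 and 6.67 to 8.48 after compound 6. Both of the tested ones, CD14 and PDGFRB, were called higher by edgeR after compound 4, and CD14 after compound 6. CD14, a monocyte marker that hepatocytes can also express, had 0.0985 and 0.164 CPM with DMSO, under the floor, and no more than 1.25 CPM in any sample. PDGFRB, a marker of stellate cells and fibroblasts, measured 2.66 and 1.64 CPM with DMSO and 8.55 and 6.32 CPM after compound 4. Without DMSO replicate 2, these calls of CD14 and PDGFRB were lost. The CD14 calls were also lost without DMSO replicate 1. After compound 4, the CD14 call was lost as well without compound 4 replicate 2. After compound 6, it was lost without any 1 replicate of compounds 5 or 6 and by DESeq2. Blocking on replicate number ended it too (edgeR adjusted p = 0.0568). The part of these shifts in the levels of the hormones was not tested.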

How the data were processed

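RNA from 8 samples of CYP3A4-overexpressing HepG2 cells was sequenced from strand-specific libraries. The authors checked the reads with FastQC (0.12.0), estimated transcript abundance with Salmon (1.5.0) on a GENCODE index and summarized it to genes with tximeta, and their processing notes also name DESeq2 (1.38.3). The deposited values are estimated counts per gene as whole numbers, not normalized. In the labels, replicate 1 of compounds 4 and 5 is marked as merged with a pair of S-numbers, whose meaning is not given. A transcript-based estimate divides reads that fit several genes, so levels of near-identical copies are uncertain.

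Counts were analysed with edgeR 4.0.16 (R 4.3.3, limma 3.58.1): filterByExpr, TMM scaling and a quasi-likelihood fit of 4 groups over all 8 samples, each compound against DMSO. DESeq2 1.42.0, other scalings and filters, a stricter threshold, the replicate block, a fit of only the groups compared and leaving out each replicate were alternatives. The procedure was tested on simulated data. Leave-one-out fits leave 1 sample in a group, which is assumed to vary like the other groups. Log2 CPM used a prior count of 2. Exon lengths came from GENCODE 29, promoters from RefSeq.

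The members, the lists of genes and the rule for naming genes were chosen with earlier results of these data known. Named are the hormones, every receptor, relative and stress factor with counts, the called member with the largest rise and fall in each other list, and the 5 genes most correlated with GDF15 and ADM2. A gene that this rule picks is not reported here.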

Additional observations from a re-analysis of the deposited data

How the results depend on the processing

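The fold changes of GDF15 and ADM2 kept their direction under all alternatives. The direction could hardly change, because every treated sample lay above both DMSO samples, so it is no added support. Leaving out 1 replicate gave log2 fold changes of 2.06 to 2.48, 3.21 to 3.6 and 1.30 to 2.34 for GDF15 with compounds 4, 5, and 6, and 1.29 to 1.36, 2.06 to 2.22 and 1.11 to 1.71 for ADM2. FGF21 had too few counts for any alternative.

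Counts of calls moved more. Of 1598, 3763 and 590 genes called, a threshold of 0.01 left 591, 1809 and 92, and 6 and 7 ATF4 targets with compounds 4 and 6. No filter gave 1441 genes with compound 6. Leaving out 1 replicate gave 335 to 1703, 1680 to 4519 and 1 to 1096 genes, and 4 to 16, 27 to 38 and 0 to 28 ATF4 targets. Fewer samples enter those fits. With compound 4, 663 genes were called without DMSO replicate 1 and 335 without DMSO replicate 2. With compound 5, 1685, 2007, 1680 and 2139 were called without DMSO replicates 1 and 2 and compound 5 replicates 1 and 2. With compound 6, 90 were called without DMSO replicate 1, 1 without DMSO replicate 2 (1797 at an unadjusted p under 0.05), 49 without its own replicate 2, 1001 without its own replicate 1, 1090 and 1096 without a compound 4 replicate, and 350 and 371 without a compound 5 replicate.

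The replicate number (day 1 or day 2) was not taken as pairing: deviations of same-numbered samples correlated between -0.083 and 0.16. With the replicate block, 1549, 3676 and 499 genes were called. Among the named genes, INHBE, DDIT3, APOA1, TF and CD14 lost their compound 6 calls (edgeR adjusted p = 0.0568, 0.0507, 0.0576, 0.0547 and 0.0568). ATF4 with compound 4 and ADM with compound 6 gained a call (0.04 and 0.0424).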

Other observations

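Of 15 other liver-secreted signals tested, 4 (26.7%) were called higher with compound 4 and 3 (20%) with compound 6, against 6.5% and 2.8% of all tested genes. With compound 5, 3 (20%) were called higher and 6 (40%) lower, against 13.9% and 14.2% of all tested genes. HAMP, encoding the iron hormone hepcidin, measured 26.2 and 17.5 CPM with DMSO and between 53.9 and 69.0 CPM in treated samples, with log2 fold changes of 1.38, 1.5 and 1.53 (edgeR adjusted p = 0.00122, 3.02e-04 and 0.00425). The compound 6 call of HAMP was lost without DMSO replicate 2. EPO, erythropoietin, fell from 6.50 and 6.08 CPM to 0.733 and 2.20 CPM with compound 5, a log2 fold change of -2.06 (adjusted p = 0.00359). The 6 lower calls after compound 5 became 2 and 3 without DMSO replicates 1 and 2, and 1 and 3 without compound 5 replicates 1 and 2, and the 3 higher calls became 5 without either replicate of compound 4. The 3 higher calls after compound 6 became 1 without DMSO replicate 1, compound 5 replicate 2 or compound 6 replicate 2, and 0 without DMSO replicate 2, where 3 passed an unadjusted p under 0.05.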
